A study of Mus musculus with 18 samples.

Results

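The mouse Cyp2a and Cyp2b cytochromes were followed in the liver by 7 genes taken by symbol, Cyp2a4, Cyp2a5, Cyp2a12, Cyp2a22, Cyp2b9, Cyp2b10 and Cyp2b13, of 52230 genes to which transcripts were joined. They were measured by RNA-sequencing of the livers of GCKR-P446L-EMI-B6N mice, a knock-in line in which the glucokinase regulatory protein (GKRP) carries either proline (PP) or leucine (LL) at the position that also varies between people. Both genotypes and both sexes ate standard chow, in 4 groups of separate mice: 4 PP males, 4 LL males, 5 PP females and 5 LL females. Labelled ages ran from 9 to 14 wk in PP males and PP females, from 13 to 14 wk in LL males and from 11 to 14 wk in LL females, while the text of the series gives 14 wk for all. All animals come from 1 knock-in line, and no batch is named for any of them. Each library held 3794671 to 6613905 estimated counts.

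The CYP2A and CYP2B enzymes are heme-containing monooxygenases of the endoplasmic reticulum that oxidise steroids, drugs and other foreign compounds with electrons passed on by cytochrome P450 reductase. In mouse liver several of them are textbook examples of sex-biased genes, whose bias is set by the pattern of growth hormone secretion, and Cyp2b10 is the best-known target of CAR (Nr1i3), the nuclear receptor that senses phenobarbital-like compounds. Copies of the family lie side by side and have been duplicated repeatedly, so that some of them differ by few bases.

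All 7 genes lie in 1 cluster on chromosome 7 of GRCm39, each with 9 exons in its main transcript. In order along the chromosome they are Cyp2b10 (chr7:25597045-25626049), Cyp2b13 (chr7:25760922-25795622), Cyp2b9 (chr7:25872835-25910086), Cyp2a4 (chr7:26006594-26014513), Cyp2a5 (chr7:26534730-26542973), Cyp2a22 (chr7:26631056-26638809) and Cyp2a12 (chr7:26728506-26736800), all on the plus strand except Cyp2a22.

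The closest pair was Cyp2a4 with Cyp2a5, whose coding sequences differed at 23 of 1482 aligned bases (98.45% identity). Cyp2a12 and Cyp2a22 were 96.95% identical over 1476 aligned bases and Cyp2b9 and Cyp2b13 92.74% over 1473, while Cyp2b10 was 87.78% identical to Cyp2b9 and 88.93% to Cyp2b13. Over the 250 bases upstream of the annotated start, Cyp2a4 and Cyp2a5 differed at 5 of 240 aligned bases (97.92% identity), Cyp2b9 and Cyp2b13 at 2 of 249 (99.2%) and Cyp2a12 and Cyp2a22 at 19 of 234 (91.88%). Those of the first pairs, Cyp2a4 with Cyp2a5 and Cyp2b9 with Cyp2b13, are printed here. The copies of the former had unlike sex differences, while those of the latter were both far higher in females. Each is given 5′ to 3′ on the plus strand of GRCm39, from chr7:26006344-26006593 for Cyp2a4, chr7:26534480-26534729 for Cyp2a5, chr7:25872585-25872834 for Cyp2b9 and chr7:25760672-25760921 for Cyp2b13, and capitals mark the bases that differ within the pair.
Cyp2a4 promoter: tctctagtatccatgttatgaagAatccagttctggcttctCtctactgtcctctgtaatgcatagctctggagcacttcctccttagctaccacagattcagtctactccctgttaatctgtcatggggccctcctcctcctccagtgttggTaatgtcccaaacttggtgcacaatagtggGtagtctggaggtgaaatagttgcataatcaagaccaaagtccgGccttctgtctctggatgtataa
Cyp2a5 promoter: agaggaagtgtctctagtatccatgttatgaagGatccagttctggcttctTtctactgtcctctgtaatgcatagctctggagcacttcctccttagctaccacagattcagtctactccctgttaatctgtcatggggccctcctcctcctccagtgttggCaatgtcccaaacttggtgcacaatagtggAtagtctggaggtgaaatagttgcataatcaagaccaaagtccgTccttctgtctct
Cyp2b9 promoter: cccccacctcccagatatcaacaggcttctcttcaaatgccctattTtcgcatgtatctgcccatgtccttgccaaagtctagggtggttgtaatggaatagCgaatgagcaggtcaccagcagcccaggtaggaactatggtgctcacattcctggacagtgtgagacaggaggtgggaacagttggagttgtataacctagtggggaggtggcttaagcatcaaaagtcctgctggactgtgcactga
Cyp2b13 promoter: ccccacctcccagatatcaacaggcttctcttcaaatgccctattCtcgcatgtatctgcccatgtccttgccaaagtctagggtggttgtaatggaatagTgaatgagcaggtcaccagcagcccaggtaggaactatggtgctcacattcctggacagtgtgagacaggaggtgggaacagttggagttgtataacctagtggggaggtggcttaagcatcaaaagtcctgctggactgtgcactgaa

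Short motifs were searched on both strands of these windows, and of the same 250 bases before 21770 protein-coding genes. TTGCNNAA, a C/EBP motif, was present before Cyp2a4, Cyp2a5, Cyp2b9, Cyp2b13 and Cyp2b10, and before 9.34% of the 21770 genes. TATAAA, the TATA box, was present before Cyp2a12 and Cyp2a22 and before 11.9% of the 21770, and CCAAT before Cyp2a12 and 36.5% of the 21770. Neither TTCNNNGAA, the STAT5 motif (7.7% of the 21770), nor CACGTG, an E-box (6.26%), was in any of the 7 windows.

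How well reads could tell the copies apart follows from their sequence. Of the 31-base words of each gene's transcripts, 55.9% of those of Cyp2a4 also occurred in Cyp2a5, against 19.6% of those of Cyp2b9 that occurred in Cyp2b13. Of those of Cyp2b13, 40.8% occurred in some other gene, with the largest part, 20%, in Gm45225, which is not among the 7. Of those of Cyp2a12, 34.5% occurred in Cyp2a22. The 60-base stretches of coding sequence that differed most within 1 exon are shown for both pairs, with differing bases in capitals. That of Cyp2a4 and Cyp2a5, in exon 2 (chr7:26007091-26007150 and chr7:26535236-26535295), held 3 differences, and that of Cyp2b9 and Cyp2b13, in exon 7 (chr7:25900249-25900308 and chr7:25787761-25787820), held 13.
Cyp2a4 exon 2: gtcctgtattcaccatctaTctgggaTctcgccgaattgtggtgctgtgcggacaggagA
Cyp2a5 exon 2: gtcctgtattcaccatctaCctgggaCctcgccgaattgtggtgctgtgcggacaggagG
Cyp2b9 exon 7: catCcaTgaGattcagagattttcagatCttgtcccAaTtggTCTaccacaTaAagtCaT
Cyp2b13 exon 7: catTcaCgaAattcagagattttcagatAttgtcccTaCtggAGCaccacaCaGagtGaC

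The tissue label was checked first. All 6 hepatocyte markers, among them Alb, Ttr and Apoa1, were expressed in every group, with summed levels of 20384 to 131175 TPM (abundance per length, scaled to the same total in each library). Summed levels of the other cell types were lower: 23.0 to 103 TPM for the 5 Kupffer cell markers, 5.59 to 50.9 TPM for 5 endothelial, 13.3 to 86.1 TPM for 6 stellate cell and fibroblast, 5.38 to 27.7 TPM for 5 cholangiocyte and 0.359 to 4.24 TPM for 5 lymphocyte markers, and none of these genes was at 0 in all libraries. In PP females against PP males, 4 of the 5 tested stellate cell markers and 2 of the 4 tested endothelial markers were called higher, as was 1 of the 6 hepatocyte markers, Alb (log2 0.94 ± 0.10, DESeq2 adjusted P = 2.22e-17). Summed TPM ranges of PP males and PP females did not overlap for the stellate cell list (13.3 to 44.7 against 65.0 to 86.1), the endothelial list (5.59 to 18.7 against 29.6 to 50.9), the hepatocyte list (20384 to 33750 against 75353 to 131175) or the lymphocyte list (0.359 to 1.39 against 1.47 to 4.24). In LL mice the sexes did not overlap for the hepatocyte list (38498 to 51526 in males against 58388 to 76704 in females) or the cholangiocyte list (5.38 to 9.64 against 13.2 to 17.4). The LL males also lay above the PP males, without overlap, for the hepatocyte list and for the lymphocyte list (1.48 to 3.16 against 0.359 to 1.39), while for all 6 lists the ranges of LL females and PP females overlapped. By the DESeq2 fit on counts, the median log2 fold change of the 6 hepatocyte markers was 0.37 in PP females against PP males. In LL females against LL males it was -0.24, opposite in direction to the summed TPM, and in LL males against PP males 0.19. The part of these shifts in the differences below was not tested. No marker was called in LL females against LL males or in either genotype comparison, and the interaction of genotype and sex was called for Alb (-0.61 ± 0.14, adjusted P = 0.018).

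Differences between groups were tested with DESeq2 over 10938 genes in 1 fit of the 18 libraries, and a gene was called differentially expressed (DEG) at an adjusted P below 0.05 and a fold of at least 1.3 or at most 0.7. The filter asked for 10 counts in 4 libraries, which 6 of the 7 genes passed. Cyp2a22 did not, with at most 2 estimated counts in any library. Cyp2a4, Cyp2b9, Cyp2b13 and Cyp2b10 passed because of the female libraries, so a sex difference in those that passed was to be found, and their number carries no weight of its own.

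The main result was a near-complete sex difference in 4 of the genes and a smaller, opposite one in Cyp2a5. Cyp2a4, Cyp2b9, Cyp2b13 and Cyp2b10 were higher in PP females than in PP male livers, where 3.68% of all tested genes were called higher, and Cyp2a5 was lower, where 2.77% were called lower. Cyp2a12 was not called. In LL mice the same 4 genes were called higher in females (3.33% of all genes were called higher) and none was called lower (2.79% of all genes).

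**Figure D1:**
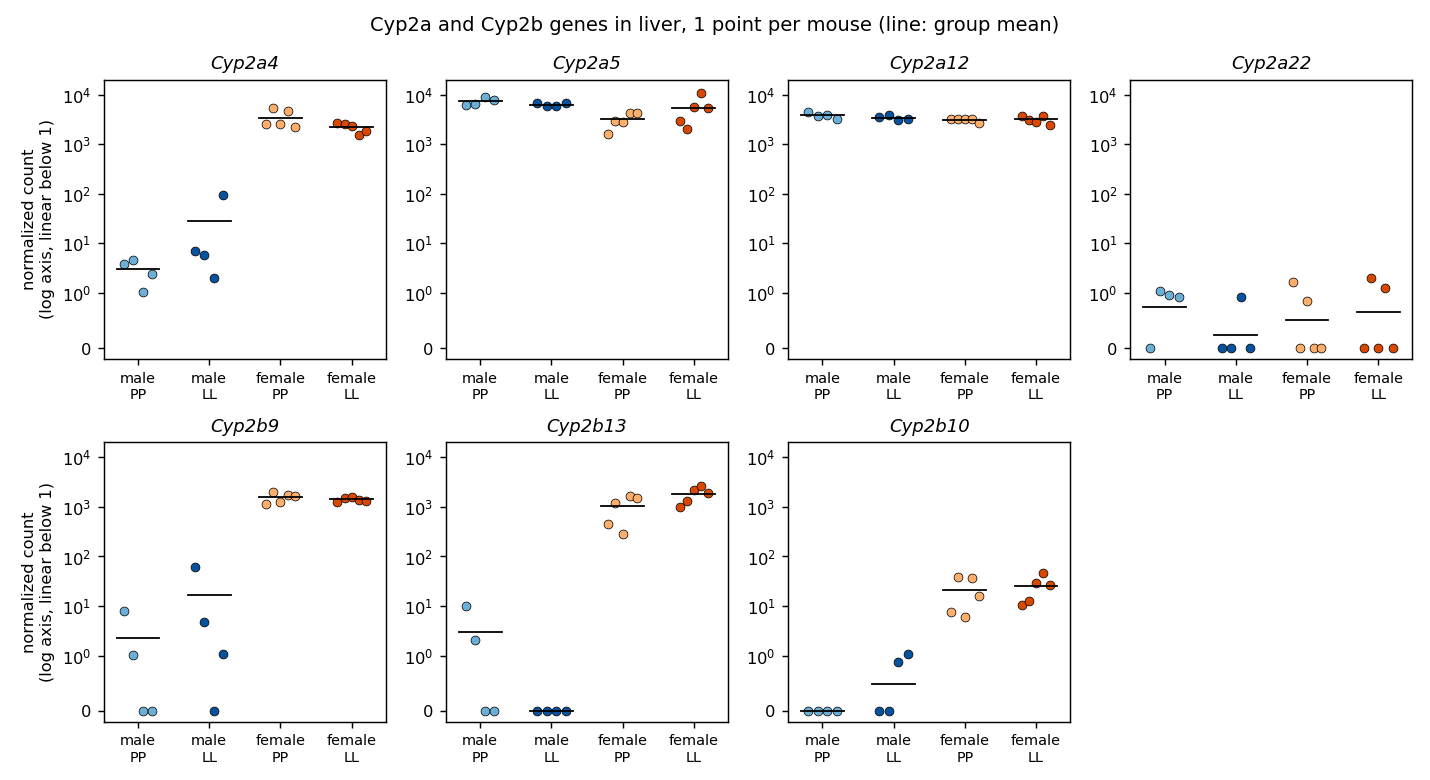
DESeq2-normalized counts (log axis, linear below 1) of the 7 genes, 1 point per mouse with the group mean as a line. Female points of Cyp2a4, Cyp2b9, Cyp2b13 and Cyp2b10 lie above every male point, Cyp2a5 and Cyp2a12 are high in all groups, and Cyp2a22 stays at or below 2.03.

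Cyp2a4, a hydroxylase of testosterone, had 2550, 5289, 2526, 4668 and 2254 normalized counts in the 5 PP females and 3.77, 4.73, 1.05 and 2.40 in the 4 PP males. In LL mice it had 2694, 2523, 2344, 1515 and 1826 in females and 7.03, 5.76, 1.98 and 95.9 in males. Every female lay above every male, by more than an order of magnitude even against the highest male. The log2 fold change was 10.18 ± 0.88 (SE) in PP mice (DESeq2 adjusted P = 7.56e-28) and 6.30 ± 0.78 in LL mice (adjusted P = 1.71e-13). In PP males it rested on 11 estimated counts in all, which gave a ratio of 1144 with an exact 95% interval of 639 to 2292 that covers counting error only. The smaller value in LL mice came with male LL 4, without which it was 8.92.

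Cyp2b9 and Cyp2b13, steroid-metabolising enzymes of female liver, were both abundant in females. Cyp2b9 had 1138, 1976, 1286, 1729 and 1663 normalized counts in PP females and 1269, 1516, 1609, 1378 and 1299 in LL females, with SDs of 21.9% and 10.2% of the mean, the smallest relative spread of the 4 genes in either female group. In males it had 8.10, 1.05, 0 and 0 in PP and 60.2, 4.80, 0 and 1.08 in LL mice. The sexes did not overlap in either genotype, with log2 fold changes of 9.60 ± 1.16 in PP (adjusted P = 2.56e-14) and 6.45 ± 1.04 in LL mice (adjusted P = 1.02e-07).

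Cyp2b13 varied more among females. It had 443, 1224, 289, 1662 and 1527 normalized counts in PP females and 1012, 1318, 2230, 2633 and 1897 in LL females. Male PP mice had 10.2, 2.07, 0 and 0, and all 4 LL males were at 0. The log2 fold change was 8.67 ± 0.87 in PP mice (adjusted P = 1.28e-20). Against the LL males at 0, LL females were at least 543-fold higher, taking 3 counts per library as the limit that a count of 0 allows, and the fitted value of 13.12 ± 1.25 (adjusted P = 1.30e-22) is no bound.

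The 2 PP female livers lowest in Cyp2b13, mice 1 and 3, were also lowest in Cyp2b10 and in Cyp2b9. Their libraries had the longest mean fragments among PP females, 458 and 631 bases against 369 to 397 in the other 3, and the part of fragment length was not tested. In Cyp2a4 they did not stand apart from female PP 5.

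Cyp2b10, the CAR target, was low everywhere in these untreated mice. It had 7.75, 38.0, 5.95, 37.5 and 16.0 normalized counts in PP females and 10.3, 12.9, 28.8, 46.1 and 26.7 in LL females. All 4 PP males were at 0, and LL males had 0, 0, 0.892 and 1.08. Female PP mice were therefore at least 6.25-fold higher than PP males (adjusted P = 6.67e-07). In LL mice 2 estimated counts in all males gave a ratio of 43.3 with a counting interval of 11.7 to 361 (adjusted P = 0.000108).

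Cyp2a5, which hydroxylates coumarin and also oxidises nicotine and bilirubin, went the other way. It had 6069, 6624, 8821 and 7741 normalized counts in PP males and 1637, 2997, 2862, 4185 and 4216 in PP females. These groups did not overlap, and the log2 fold change was -1.20 ± 0.34 (adjusted P = 0.00841). In LL mice the sexes overlapped, with 6876, 5788, 5907 and 6665 in males and 2888, 2047, 5674, 10890 and 5423 in females. The log2 difference there was -0.23 ± 0.34 (adjusted P = 0.767), with a 95% interval of -0.89 to 0.43. The call in PP mice was near its limit: adjusted P was 0.0528 with edgeR, 0.0768 without female PP 2, and 0.0509, 0.0646 and 0.0558 without male PP 1, 2 and 3.

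Cyp2a12, a steroid hydroxylase that also acts on bile acids, lay between 2465 and 4516 normalized counts in all 18 livers. Group means were 3846 ± 559 (SD, n = 4) in PP males, 3436 ± 343 (n = 4) in LL males, 3111 ± 249 (n = 5) in PP females and 3162 ± 558 (n = 5) in LL females. The log2 difference by sex was -0.31 ± 0.13 in PP mice (adjusted P = 0.180) and -0.12 ± 0.13 in LL mice (adjusted P = 0.680). Of the estimated counts of Cyp2a12 and its close copy Cyp2a22, at least 99.94% were assigned to Cyp2a12 in every liver.

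In PP mice Cyp2a4 was higher and Cyp2a5 lower in females, and their sum passed the test in neither genotype. Summed per mouse, the pair had 6073, 6629, 8822 and 7744 normalized counts in PP males and 4187, 8286, 5388, 8852 and 6470 in PP females. The ranges overlap, with 2 of the 5 PP females below every PP male. The log2 fold change of the sum was -0.14 ± 0.24 in PP mice (adjusted P = 0.854), with an interval of -0.62 to 0.34, and 0.26 ± 0.24 in LL mice (adjusted P = 0.614), with an interval of -0.22 to 0.73. The sum of Cyp2b9 and Cyp2b13, by contrast, was 9.03 ± 1.19 log2 units higher in females of PP (adjusted P = 6.02e-12) and 7.64 ± 1.16 in LL mice (adjusted P = 7.59e-09).

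**Figure D2:**
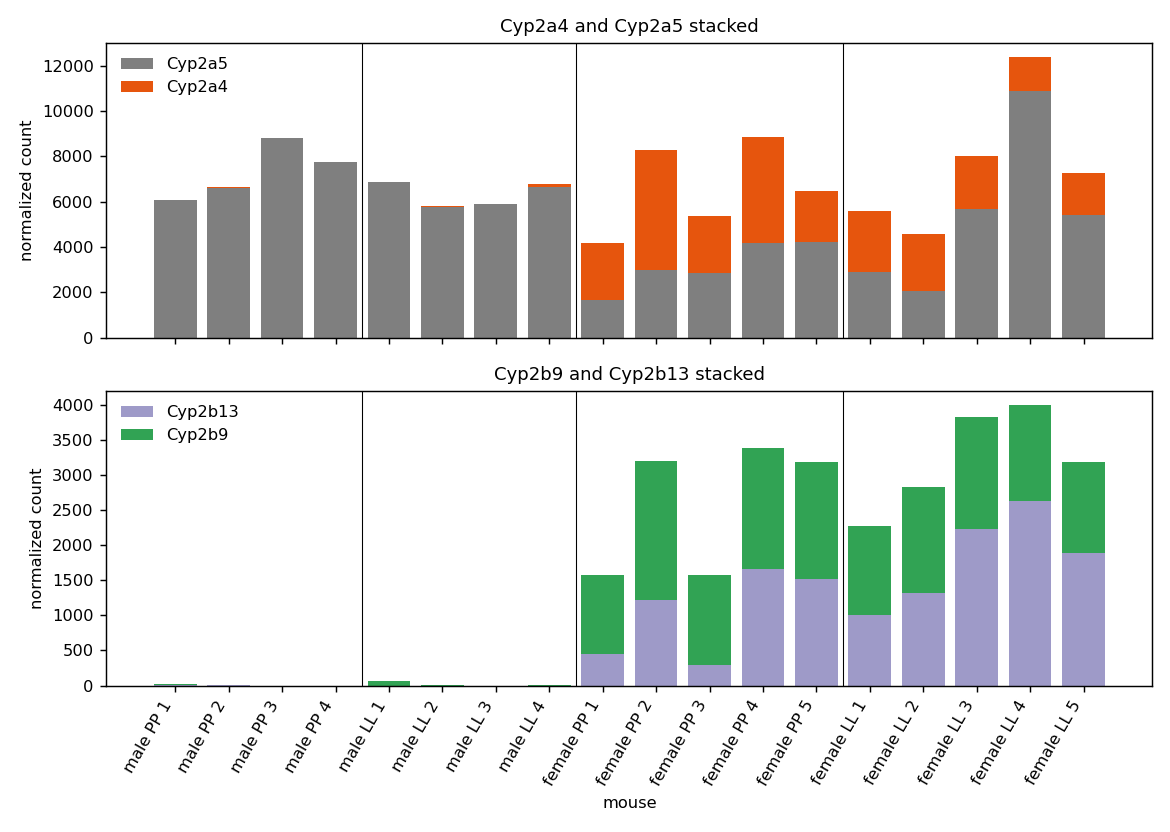
DESeq2-normalized counts per mouse of the 2 close pairs, stacked, with vertical lines between the 4 groups. Totals of Cyp2a4 and Cyp2a5 overlap between the sexes (6073 to 8822 in PP males, 4187 to 8852 in PP females), but Cyp2a4 is visible in females and, at 95.9 counts, in male LL 4, and Cyp2b9 and Cyp2b13 in females and, at 60.2 counts, in male LL 1.

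Cyp2a4 made up 60.9%, 63.8%, 46.9%, 52.7% and 34.8% of the estimated counts of the pair in PP females and 48.3%, 55.2%, 29.2%, 12.2% and 25.2% in LL females. In PP males it made up 0.0119% to 0.0713% and in LL males 0.0335% to 1.42%. Salmon, which shares ambiguous reads between copies, thus assigned at most 1.42% of the pair to Cyp2a4 in male livers, which had 5788 to 8821 normalized counts of Cyp2a5. The sexes did not overlap (exact permutation P = 0.0159 in each genotype, the smallest that 5 against 4 allows; adjusted over 12 tests P = 0.0952).

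By genotype, no gene of the family was called in females and 1 was called in males, Cyp2a4, on the strength of 1 mouse. In LL males against PP males 0.283% of all genes were called. Cyp2a4 had a log2 fold change of 3.21 ± 0.93 (adjusted P = 0.0484), with male LL 4 at 95.9 normalized counts and the other 3 LL males at 1.98 to 7.03, which overlap the 1.05 to 4.73 of PP males. Without male LL 4 the value was 0.61 ± 0.67 (adjusted P = 0.931), and edgeR gave an adjusted P of 0.379. The call was kept in 11 of 28 alternatives that gave an adjusted P.

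The other genes were not called in males. Cyp2b9 had a log2 difference of 3.02 ± 1.22 (adjusted P = 0.286), with 60.2 normalized counts in male LL 1. It was called without male LL 3 (3.50, adjusted P = 0.0416), but not in 26 of the 27 alternatives that gave an adjusted P. Leaving out a library gave values of Cyp2b9 from 0.11 to 5.56. Cyp2b13 was at -3.64 ± 1.36 (adjusted P = 0.212), where 8 estimated counts in PP males stood against 0 in LL males, at most 6 of them in 1 library. Cyp2a5 was at -0.21 ± 0.35 (adjusted P = 0.903) and Cyp2a12 at -0.16 ± 0.14 (adjusted P = 0.722). Cyp2b10, at 0 to 1 count, received no adjusted P.

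In LL females against PP females, where 0.658% of all genes were called, none of the 6 genes tested was called by DESeq2 or by edgeR. At an unadjusted P below 0.05 there was 1, Cyp2a5. Cyp2a5 was 5384 ± 3456 (SD, n = 5) normalized counts in LL females and 3179 ± 1072 (n = 5) in PP females. Its log2 difference of 0.76 ± 0.32 had an adjusted P of 0.224, and the groups overlapped. Without female LL 2, the liver lowest in Cyp2a5 in that group, it was 0.97 ± 0.29 and was called (adjusted P = 0.0474). Leaving out a library gave values from 0.33 to 0.97, and Cyp2a5 was not called in 28 of 29 alternatives.

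Cyp2a4 stood at -0.66 ± 0.72 (adjusted P = 0.720), Cyp2b13 at 0.82 ± 0.69 (adjusted P = 0.618), Cyp2b9 at -0.14 ± 0.97 (adjusted P = 0.969) and Cyp2a12 at 0.02 ± 0.13 (adjusted P = 0.957). Cyp2b10, at 0.23 ± 0.54, received no adjusted P. In the same comparison the mean fragment length was 448 ± 108 bases in PP females and 292 ± 52.1 bases in LL female libraries (exact permutation P = 0.0159). It differed along with genotype, so a fit with it as a term cannot fully separate them. Mitochondrial transcripts held 10.2% ± 1.11 (SD) of estimated counts in PP females and 12.4% ± 1.34 in LL females (exact permutation P = 0.0317). The part of this share was not tested. With fragment length as a term, Cyp2a4 stood at 0.04 and Cyp2b13 at -0.20, and 14 of 10938 genes were called, against 72 without it.

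The make-up of the pairs was compared in the same way, and neither difference passed the correction for 12 tests. Cyp2a4 was 51.8% ± 11.6 (SD, n = 5) of its pair in PP females and 34.0% ± 17.5 (n = 5) in LL females (exact permutation P = 0.0952, adjusted P = 0.190). Cyp2b9 was 72.0%, 61.8%, 81.7%, 51.0% and 52.1% of Cyp2b9 plus Cyp2b13 in PP females and 55.6%, 53.5%, 41.9%, 34.4% and 40.6% in LL females (exact permutation P = 0.0476, adjusted P = 0.143).

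**Figure D3:**
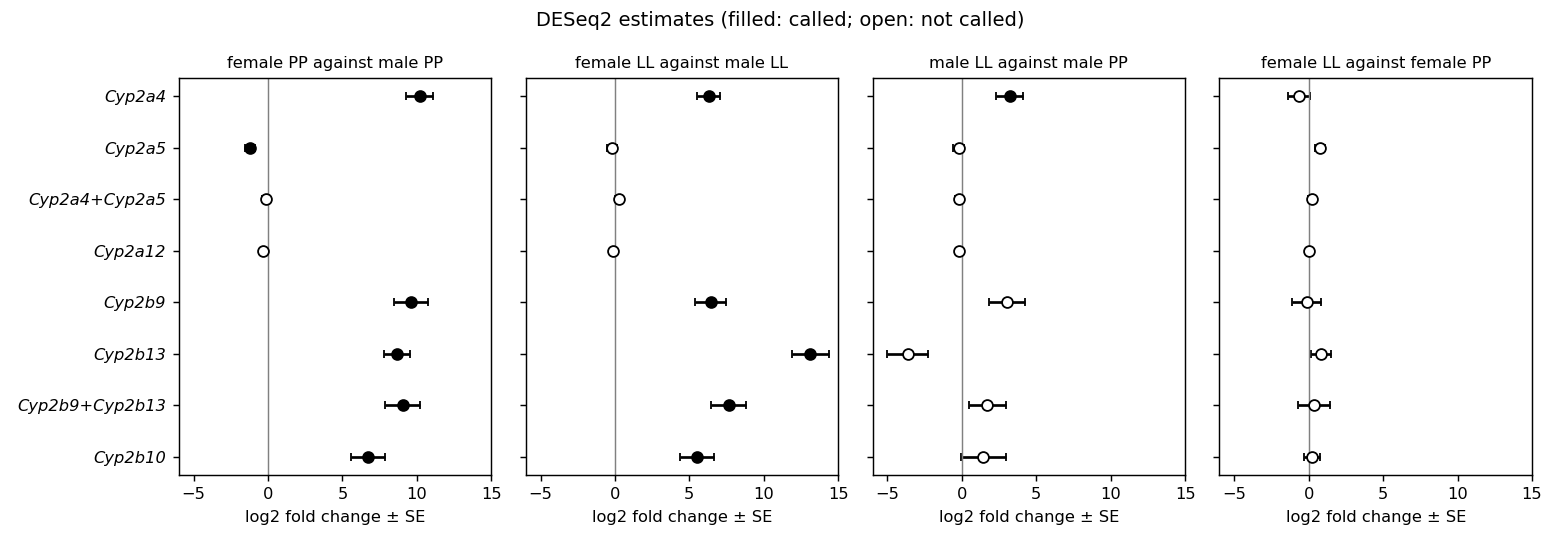
DESeq2 log2 fold changes with their SE (horizontal axis) of 6 genes and of 2 sums of close copies (vertical axis) in the 4 comparisons, with filled points for called and open points for uncalled differences. The sum of Cyp2a4 and Cyp2a5 lies near 0 in all 4 panels (-0.21 to 0.26), while Cyp2a4 alone reaches 10.18.

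Whether the genotype difference itself differed between the sexes was tested with an interaction term, by which 0.119% of all genes were called. None of the 6 genes was, by DESeq2 or by edgeR, while 4 had an unadjusted DESeq2 P below 0.05. Cyp2a4 came closest at -3.87 ± 1.17 log2 units (adjusted P = 0.0812) and was at -1.27 without male LL 4 (adjusted P = 0.854), while without male LL 2 (-4.21, adjusted P = 0.0475) or male LL 3 (-4.28, adjusted P = 0.0154) it was called. Cyp2b13 was at 4.46 ± 1.53 (adjusted P = 0.159), Cyp2b9 at -3.16 ± 1.56 (adjusted P = 0.458) and Cyp2a5 at 0.97 ± 0.48 (adjusted P = 0.457).

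Levels of different genes were compared per length, as normalized counts per kb of the main transcript. Cyp2a5 ranked first in PP males (3633 ± 607, SD, n = 4), followed by Cyp2a12 (2288 ± 333), with Cyp2a4, Cyp2b9 and Cyp2b13 at 1.72 or less. In PP females Cyp2a4 (1989 ± 812, n = 5), Cyp2a12 (1851 ± 148) and Cyp2a5 (1579 ± 533) had ranges that overlapped each other. Cyp2b9 (831 ± 182) and Cyp2b13 (549 ± 335) followed, overlapping each other, and Cyp2b10 was last at 11.0 ± 8.20. LL males had Cyp2a5 at 3134 ± 269 (n = 4), Cyp2a12 at 2044 ± 204, Cyp2a4 at 15.9 ± 26.2 and Cyp2b9 at 8.80 ± 15.6, with Cyp2b13 at 0. Female LL mice had Cyp2a5 at 2675 ± 1717, Cyp2a12 at 1881 ± 332, Cyp2a4 at 1255 ± 284, Cyp2b13 at 970 ± 352 and Cyp2b9 at 754 ± 77.2.

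Summed over all 7 genes, this level was 5926 ± 546 per kb in PP males, 5203 ± 326 in LL males, 6810 ± 1511 in PP females and 7547 ± 1905 in LL females. The deposited TPM, summed in the same way, was 1670 ± 934, 1965 ± 1577, 1638 ± 382 and 2201 ± 1097. Relative to the mean, its SD was 55.9%, 80.2%, 23.4% and 49.9%, against 9.21%, 6.27%, 22.2% and 25.2% per kb. No difference in TPM summed over the 7 genes passed the test (exact permutation P = 0.921 for PP females against PP males, 0.651 for LL females against LL males, 0.771 for LL males against PP males and 0.341 for LL females against PP females). By counts, LL females lay above LL males without overlap, by 4194 normalized counts or 2344 per kb (exact permutation P = 0.0159 for each, unadjusted). For the Cyp2b genes alone summed TPM was 274 ± 101 in PP females and 0.280 ± 0.434 in PP males, and 322 ± 87.1 in LL females and 1.69 ± 2.51 in LL males (exact permutation P = 0.0159 for each, adjusted over 12 tests P = 0.0952).

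Cyp2a5 alone had a TPM of 1414 ± 957 in PP males, 1650 ± 1624 in LL males, 585 ± 175 in PP females and 1297 ± 1003 in LL females, while Cyp2a4 had 403 ± 169 in PP females. The reads of Cyp2a5 were divided among 5 annotated transcripts. The longest, Cyp2a5-201 (2013 bases, all 9 exons), held 50.7% to 97.3% of the estimated counts of the gene. Cyp2a5-205, of 442 bases, held 0% to 33.4%, but because its effective length was only 52.3 to 271 bases it made up 0% to 89.7% of the TPM. Cyp2a5 accordingly had 2731 TPM in male PP 3 and 528 TPM in male PP 4, which differed little in normalized counts (8821 and 7741). With an offset for the average transcript length, the log2 fold change of Cyp2a5 in PP females against PP males was -2.20 in place of -1.20.

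**Figure D4:**
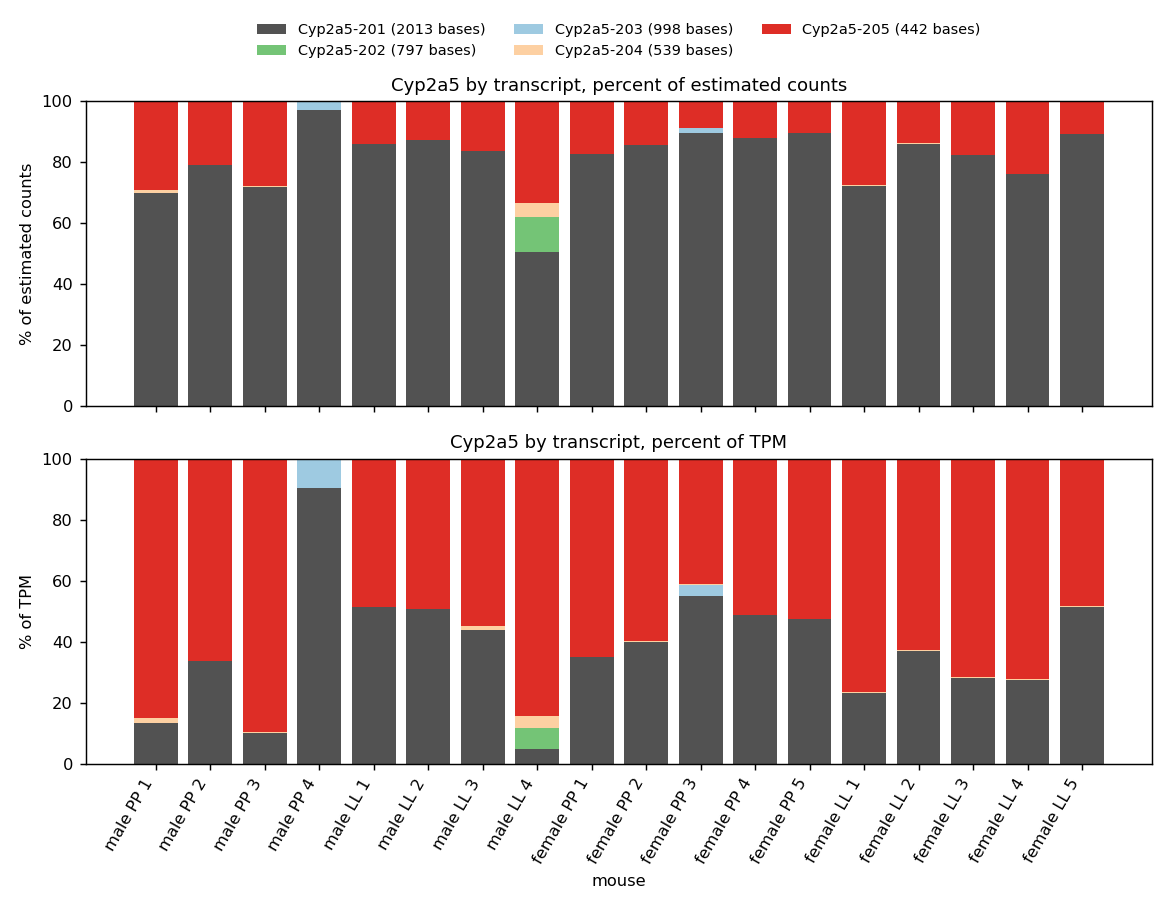
Share of each of the 5 annotated Cyp2a5 transcripts in the gene's estimated counts (upper bars, % per mouse) and in its TPM (lower bars). The transcript of 442 bases takes at most 33.4% of counts but up to 89.7% of TPM, and male LL 4 is alone in having counts on Cyp2a5-202 (11.3%).

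Genes that work with or regulate the family were counted as lists. Of 12 genes for electron donors and heme synthesis, none was called in PP females against PP males (median log2 fold change 0.04, against 0.00 for all genes) and 1 in LL females against LL males, Alad (1.05 ± 0.30, adjusted P = 0.0138), an enzyme of heme synthesis. Por, the electron donor of all these enzymes, had 1209 ± 193 normalized counts in PP males and 1308 ± 208 in PP females (adjusted P = 0.887). None of the 12 was called by genotype, where 1 in males and 2 in females had an unadjusted P below 0.05, and edgeR called none of the 12 in any comparison.

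Of 22 nuclear receptors and liver transcription factors, 2 were called higher and 1 lower in PP females than in PP males (median 0.08). Cux2, a female-specific repressor, had 62.2 ± 51.1 normalized counts in PP females and 1.56 ± 1.39 in PP males (log2 5.49 ± 0.81, adjusted P = 1.23e-09). Esr1, the estrogen receptor, was higher by 1.33 ± 0.31 (adjusted P = 0.000542), and Bcl6, a male-biased repressor, lower at -2.09 ± 0.62 (adjusted P = 0.0147). In LL mice 3 were called higher in females and none lower (median 0.20): Cux2, Stat5b (0.65 ± 0.21, adjusted P = 0.0317) and Nr1i3.

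Nr1i3, which encodes CAR, had 1139 ± 368 (SD, n = 4) normalized counts in PP males, 984 ± 325 (n = 4) in LL males, 1318 ± 207 (n = 5) in PP females and 1877 ± 344 (n = 5) in LL females. It was called in LL mice by sex (0.93 ± 0.23, adjusted P = 0.00288) but not in PP mice (0.21 ± 0.23, adjusted P = 0.742), and the interaction was not called (adjusted P = 0.419). No gene of the list was called by genotype with DESeq2 or edgeR, while 3 in males and 7 in females had an unadjusted P below 0.05.

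Other targets of CAR and of the related receptor PXR were called in both directions. Of 15, 12 were tested, and 3 were called higher and 1 lower in PP females than in PP males (median -0.01). Slco1a4, an organic anion transporter, was higher by 2.39 ± 0.46 (adjusted P = 1.48e-05), Cyp2c37, a lipid-oxidising cytochrome, by 1.55 ± 0.34 (adjusted P = 0.000237) and Ugt1a1, the bilirubin-conjugating enzyme, by 0.68 ± 0.21 (adjusted P = 0.0212). Aldh1a1, a retinal dehydrogenase, was lower at -0.95 ± 0.22 (adjusted P = 0.00047). In LL mice Cyp2c37, Slco1a4 and Ugt1a1 were called higher in females, none lower (median -0.08), and none of the 12 was called by genotype with DESeq2 or edgeR (1 in each sex at an unadjusted P below 0.05).

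Of 10 other female-biased liver genes, 9 were tested, with 8 called higher in PP females (median 8.93) and 9 in LL females (median 9.46). Cyp17a1, a steroid hydroxylase, was the only list gene called by genotype in males (2.24 ± 0.52, adjusted P = 0.00441, not called by edgeR), and none was called or had an unadjusted P below 0.05 in females. Of 10 male-biased genes, 8 were called lower in PP females (median -4.34) and 9 in LL females (median -4.55), among them Elovl3, a fatty acid elongase (-4.96 ± 0.39 in PP mice, adjusted P = 6.64e-34). None of the 10 was called by genotype with DESeq2 or edgeR, with 1 in males and 5 in females at an unadjusted P below 0.05. Both lists were made of genes known for their sex bias, so their direction is no independent result.

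Of 6 other cytochrome genes of the cluster, 2 were tested. Cyp2f2 was not called in PP females against PP males (-0.53 ± 0.19, adjusted P = 0.0588) and was lower in LL females than in LL males (-0.71 ± 0.19, adjusted P = 0.0054). Of 12 pericentral hepatocyte genes, the zone where CYP2A5 and CYP2B proteins are known to be found, none was called in PP females against PP males by DESeq2 or edgeR (5 at an unadjusted P below 0.05, median -0.35). Lect2 and Oat were higher in LL females than in LL males (median 0.32), and Lect2 was higher in LL females than in PP females (0.48 ± 0.13, adjusted P = 0.0391). None of 10 periportal genes was called by DESeq2 or edgeR in any comparison (1 to 4 at an unadjusted P below 0.05), with medians of 0.26, -0.18, 0.25 and -0.13 in the order PP females against PP males, LL females against LL males, LL males against PP males and LL females against PP females.

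Age was labelled per mouse and differed within groups. With age as a term, no gene of the family was called for age (21 of 10938 genes were). Cyp2a5 was at 0.20 ± 0.07 log2 units per week (adjusted P = 0.382) and Cyp2a12 at -0.07 ± 0.03 (adjusted P = 0.680).

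The 6 genes were also compared within groups. After subtraction of group means from log2(normalized count + 1), Pearson's r over 18 libraries was -0.08 between Cyp2a4 and Cyp2a5, 0.44 between Cyp2b9 and Cyp2b13, 0.56 between Cyp2b10 and Cyp2b13 and 0.66 between Cyp2a5 and Cyp2b10. Among 5641 other genes, the most alike were Aldh1l1 for Cyp2b10 (r = 0.92, and 0.90 without the 2 libraries where Cyp2b10 deviated most), Atp5f1c for Cyp2a12 (0.87 and 0.79), Acmsd for Cyp2a4 (0.83 and 0.60) and Wasl for Cyp2b9 (0.81 and 0.41). The second and the third in likeness were 4732465J04Rik and Glrx3 for Cyp2b13, Sult2a2 and Cth for Cyp2b10, B2m and Rab9 for Cyp2a12, Ivd and Pbld2 for Cyp2a5, Tmsb4x and Cyp17a1 for Cyp2a4, and Slc22a26 and Irf2 for Cyp2b9, with r from 0.73 to 0.86. The points share library size and composition, and these values are descriptions of the libraries.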

How the data were processed

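Libraries of total liver RNA were analysed from 18 mice, grouped by the sample labels. The authors deposited, for each mouse, a table of 139225 transcripts made with Salmon 1.4.0 on GRCm39, per the submitters' processing notes, which also name FastQC. The deposited estimated counts share ambiguous reads between copies by a model, and the deposited TPM values divide them by effective length. Of the transcripts, 137570 were joined to genes with GENCODE M39, and 1655 were not. Estimated counts were summed per gene and rounded, and genes reaching 10 counts in 4 or more libraries entered DESeq2 1.42.0 (R 4.3.3), Wald tests in 1 fit of 4 groups with median-of-ratios size factors and Benjamini-Hochberg adjustment over all genes tested. Close copies were also summed and fitted again. Shares of a pair and summed TPM were compared by exact permutation of group means, two-sided (scipy).

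Alternatives were edgeR 4.0.16 (quasi-likelihood), TMM size factors, no filter, a filter of 10 counts in 9 libraries, no independent filtering, a length offset, age or fragment length as a term, a replicate block, no Cook's cutoff, pairwise fits and leaving out each library. A level per kb of the main transcript was added after seeing the data. The fits were tested on simulated data. Promoter and coding sequences were read from GRCm39 with the M39 annotation. DESeq2 P-values set a group difference against a spread between separate mice that was estimated jointly over the 4 groups. Permutation P-values set a difference in means against all regroupings of the mice, and counting intervals cover counting error only. In whole liver, fewer cells of a type and less RNA per cell cannot be told apart. The genes, the 8 gene lists and the 6 marker lists were chosen with earlier results of these data known. Named list genes were at most the 4 of smallest adjusted P per list and comparison, plus Nr1i3 and Por. For likeness, the 3 closest genes with a mean of at least 50 normalized counts were named, and some results are not reported here.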

Additional observations from a re-analysis of the deposited data

Results flagged for a closer look

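Of 44 sets of a gene, sum or share within a group, 10 had a mouse whose distance to its nearest neighbour took up more of the group's range than Dixon's 95% limit allows. For normally distributed values chance gives about 1 in 20 such sets. Several of the 10 rest on counts at or near 0, where that rate does not apply, and several are the same mouse seen in a gene and in its pair. Male LL 4 stood apart in Cyp2a4 (95.9 normalized counts, the other 3 at 1.98 to 7.03) and hence in the share of Cyp2a4 in its pair (1.42%, the others at 0.0335% to 0.102%). Male LL 1 stood apart in Cyp2b9 (60.2 normalized counts, the others at 0 to 4.80), which was also its sum with Cyp2b13. Male PP 1 stood apart in Cyp2b9 (8.10, the others at 0 to 1.05) and in the sum with Cyp2b13 (18.3, the others at 0 to 3.12). Female PP 5 was low in Cyp2a12 (2676 normalized counts, the others at 3162 to 3297). For Cyp2a22, the values were 0 in male PP 1 and 0.92 in male LL 3, with a Cyp2a12 share of 99.97% in the latter, and rest on 0 or 1 estimated count.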

How the results depend on the processing

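Replicate numbers pair no mice (correlations of same-numbered mice ran from -0.17 to 0.16), and with a replicate block the genes called were 5 in PP females against PP males, 4 in LL females against LL males and 0 in the other comparisons. The calls by sex of Cyp2a4, Cyp2b9, Cyp2b13 and Cyp2b10 were kept in every alternative that gave an adjusted P. The single call in LL males against PP males became 0 with edgeR, with no filter, with 10 counts in 9 libraries, with no independent filtering, with age or fragment length as a term, with the replicate block and in the pairwise fit. Leaving out a library gave 0 to 2 calls there, and 0 to 1 in LL females against PP females and in the interaction.

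With fragment length as a term, log2 differences in LL females against PP females became 0.037 for Cyp2a4, -0.10 for Cyp2a12, -0.10 for Cyp2a12 plus Cyp2a22, -0.20 for Cyp2b13 and -0.83 for Cyp2b9 plus Cyp2b13. The sum of Cyp2a4 and Cyp2a5 was 0.0023 with age as a term in PP females against PP males and -0.53 with a length offset in LL females against LL males. In place of that sum, Cyp2a4 alone gave 10.18, 6.30, 3.21 and -0.66, and Cyp2a5 alone -1.20 and -0.23 in the sex comparisons. In place of the Cyp2b sum, Cyp2b13 gave -3.64 in males and Cyp2b9 -0.14 in females by genotype. Leaving out a library gave -0.062 to 0.32 for Cyp2a4 plus Cyp2a5 and -0.045 to 0.10 for Cyp2a12, alone or with Cyp2a22, in females, and -1.34 to 4.01 for Cyp2b9 plus Cyp2b13 in males.

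The difference in the share of Cyp2a4 in LL females against PP females was -19.8 points by TPM (exact permutation P = 0.0238, unadjusted), and -23.1 to -12.4 points on leaving out a library. Summed TPM of all 7 genes turned direction with normalized counts (1187 in PP females against PP males, -1379 in LL males against PP males) and per kb (884 and -723). In LL females against LL males it kept its direction, at 4194 by normalized counts and 2344 per kb (exact permutation P = 0.0159 for each, unadjusted). For the Cyp2a genes it turned to 954 and 616 in LL females against LL males and to -1391 and -729 in LL males against PP males. Leaving out a library gave -326 to 394, -219 to 1021 and -491 to 722 TPM for all 7 genes, and -600.3 to 120.2, -512 to 701 and -492 to 720.4 TPM for the Cyp2a genes, in PP females against PP males, LL females against LL males and LL males against PP males. The cause of these turns was not tested. Depth limits Cyp2a22, Cyp2b10 and the male counts of Cyp2a4, Cyp2b9 and Cyp2b13.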

Other observations

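The 2 LL males that stood apart in Cyp2a4 or Cyp2b9 had the other Cyp2b and Cyp2a4 transcripts at 7.03 normalized counts or less. Lower traces were seen in other males too, among them male PP 1 with 10.2 of Cyp2b13 and 8.10 of Cyp2b9. Male LL 4, with 95.9 normalized counts of Cyp2a4, had 1.08 of Cyp2b9 and 0 of Cyp2b13, and male LL 1, with 60.2 of Cyp2b9, had 7.03 of Cyp2a4 and 0 of Cyp2b13. Of the other female-biased genes, Cyp17a1 and Nipal1 were highest in these 2 mice among the 8 males: Cyp17a1 had 449 normalized counts in male LL 4 and 177 in male LL 1, against 28.3 to 107 in the other 6 males, and Nipal1 had 25.1 and 14.6, against 0 to 4.83. Sult3a1, Hao2 and Sult2a1 were at 0 in both mice, and A1bg, Cyp3a41a, Cyp3a44 and Prom1 were between 0 and 3.91.

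In the same library, male LL 4, Salmon placed 752 normalized counts on Cyp2a5-202, which had none in any other mouse, and 313 on Cyp2a5-204. Its Cyp2a5-201 held 50.7% of the gene's counts, the lowest of the 18, and its Cyp2a5 level of 4082 TPM was the highest, with 6665 normalized counts inside the LL males range.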
